A study of Mus musculus with 10 samples.

Results

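PERK, the stress kinase encoded by Eif2ak3, was compared between knockout and wild type macrophages that had been driven to the inflammatory state with lipopolysaccharide (LPS) and interferon-gamma. The readout was trimethylated lysine 27 of histone H3 (H3K27me3), profiled by chromatin immunoprecipitation and sequencing. The comparison was chosen by genotype and stimulation: 2 knockout (KO M1) and 2 wild type (WT M1) libraries, 4 of the 10 libraries of the series, on autosomes 1 to 19. KO cells were Eif2ak3 fl/fl with LysMcre, a Cre recombinase expressed from the lysozyme M gene and therefore active in myeloid cells, and WT cells were Eif2ak3 fl/fl without Cre. All groups thus carried the floxed allele, and the controls did not carry Cre. Marrow of C57BL/6 mice was grown for 7 days in 20 ng/ml M-CSF, a growth factor for macrophages, and then received 20 ng/ml LPS with 50 ng/ml interferon-gamma for 24 h. Cells stimulated with 20 ng/ml IL-4 for 24 h (M2, 2 libraries per genotype) and unstimulated cells (M0, 1 per genotype) are used below only where a value in M1 is set beside them. The design text calls the M1 libraries biological replicates, and whether they came from separate animals is not given in the sources used here. The age of the mice is likewise not given there.

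H3K27me3 is laid down by Polycomb repressive complex 2, whose catalytic subunit is Ezh2, and is removed by demethylases such as Kdm6b. It marks genes held silent, above all developmental regulators with CpG-rich promoters, and inflammatory signals are known to remove it from some macrophage genes. PERK phosphorylates the initiation factor eIF2-alpha under stress in the endoplasmic reticulum, which favours translation of the transcription factor Atf4. Among the genes that Atf4 activates are those of serine synthesis, a pathway that feeds one-carbon units into the supply of methyl groups.

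No region and no gene differed between KO M1 and WT M1 past an adjusted p of 0.05. Most Hox genes and developmental regulators were covered by regions in all 4 libraries. Of 28 macrophage identity genes 0 were covered in any of the 4, beside 3599 of all 20665 gene bodies. At single positions, the promoters of the chemokine gene Ccl22 and of the chemokine receptor gene Cxcr2 were covered in both KO M1 libraries and in neither WT M1 library. The number of covered chemokine promoters overlapped between the genotypes. The sections that follow give the values of each library before each comparison.

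The 4 libraries held 18.4 and 18.6 megatags in KO M1, against 19.9 and 19.9 megatags in WT M1. Their called regions contained 45.4% and 48.5% of all tags in KO M1, against 48.3% and 45.0% in WT M1, with 95% Wilson intervals of about 0.023 percentage points to either side that cover counting error only. WT M1 replicate 1 stood apart on the X chromosome, where regions covered 0.901 and 0.841 Mb in KO M1, against 31.3 and 0.931 Mb in WT M1. WT M2 replicate 1 had the same feature, with 52.9 Mb. It also had the shortest autosomal length under regions in M2, at 179.0 Mb. The other WT M2 library had 250.1 Mb and the KO M2 libraries 244.5 and 213.2 Mb. The X chromosome is outside the comparison, and results without WT M1 replicate 1 stand beside those that it moved. The sex of the animals behind each library is not given in the sources used here, and whether this library differs from the others in source was not tested. The targeted gene Eif2ak3 itself lay outside called regions in all 4 libraries, so the mark does not check the deletion and the genotypes rest on the labels.

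The identity of the cells was read from genes that should or should not be silent in macrophages. None of 28 autosomal macrophage identity genes had 50% or more of its body under called regions in any of the 4 libraries, and none of the 16 with a known start had a covered promoter. The same held for all 33 genes of mitochondrial respiration, the tricarboxylic acid cycle included, and for all 21 housekeeping genes, among them Actb. Over all 20665 autosomal protein-coding genes, 2942 and 3271 bodies were covered in KO M1, against 2973 and 3107 in WT M1. Only 3599 were covered in any of the 4 libraries, so most genes of any kind were not covered. Markers of other lineages carried the mark in similar numbers in both genotypes. Lymphoid markers were covered in 11 and 14 of 30 in KO M1, against 12 and 11 in WT M1. The markers of granulocytic, erythroid and dendritic lineages were covered in 5 and 7 of 27 in KO M1, against 5 and 7 in WT M1. Stromal, endothelial and epithelial markers were covered in 5 and 8 of 28 in KO M1, against 6 and 6 in WT M1. Of 30 lymphoid markers 11 were covered in all 4 libraries and 15 in none. For the 27 granulocytic, erythroid and dendritic markers these numbers were 3 and 19, and for the 28 stromal, endothelial and epithelial ones 4 and 19. As single examples, Cd3e, a T cell receptor component, and Gata2, a regulator of blood progenitors, were 100% covered in all 4 libraries. The share of other cells in a culture and the amount of mark per cell cannot be told apart in such bulk samples.

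Genome-wide, the number and length of called regions overlapped between the genotypes, with tags scaled per library and no input. Autosomal regions numbered 32023 and 32920 in KO M1, against 32125 and 33522 in WT M1, which is 32472 ± 634 against 32824 ± 988 (SD, n = 2; difference -352, exact two-sided permutation p = 0.667). The length under regions was 225.7 and 241.1 Mb in KO M1, against 216.1 and 240.1 Mb in WT M1 (233.4 ± 10.9 against 228.1 ± 17.0 Mb; difference 5.32 Mb, exact permutation p = 0.667, n = 2). Both genotypes thus overlapped, and the gap between the means was smaller than the SD within either genotype. Without WT M1 replicate 1 the difference in length was -6.66 Mb, and the direction also turned without KO M1 replicate 2 (-2.39 Mb). The direction of the difference in region number turned without KO M1 replicate 1 (96.5) and without WT M1 replicate 2 (346.5), and was -1050.5 without WT M1 replicate 1.

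The share of all tags, X included, that lay inside autosomal regions separated the genotypes, as did depth, given above. The share was 45.2% and 48.4% in KO M1, against 43.8% and 44.9% in WT M1 (46.8% ± 2.22 against 44.3% ± 0.783, SD, n = 2). The difference of 2.50 percentage points had an exact permutation p of 0.333, the smallest that 2 libraries against 2 allow (n = 2), so the design cannot put it past 0.05. Over regions of all chromosomes the share did not separate them, because X regions held 4.56% of the tags of WT M1 replicate 1 and 0.147% to 0.155% of those of the other 3 libraries. The same X tags lower the autosomal share of WT M1 replicate 1, and a share of autosomal tags alone was not computed. Without WT M1 replicate 1 the difference in autosomal share was 1.95 percentage points. Mean tag density inside regions did not separate them, at 20.0 and 20.1 normalised tags per kb in KO M1 against 20.3 and 18.7 in WT M1 (exact permutation p = 1.00, n = 2). Broad domains of 20 kb or more numbered 2404 and 2630 in KO M1, against 2242 and 2583 in WT M1. Focal regions of up to 1.5 kb numbered 10256 and 11292 in KO M1, against 11206 and 11013 in WT M1.

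**Figure D1:**
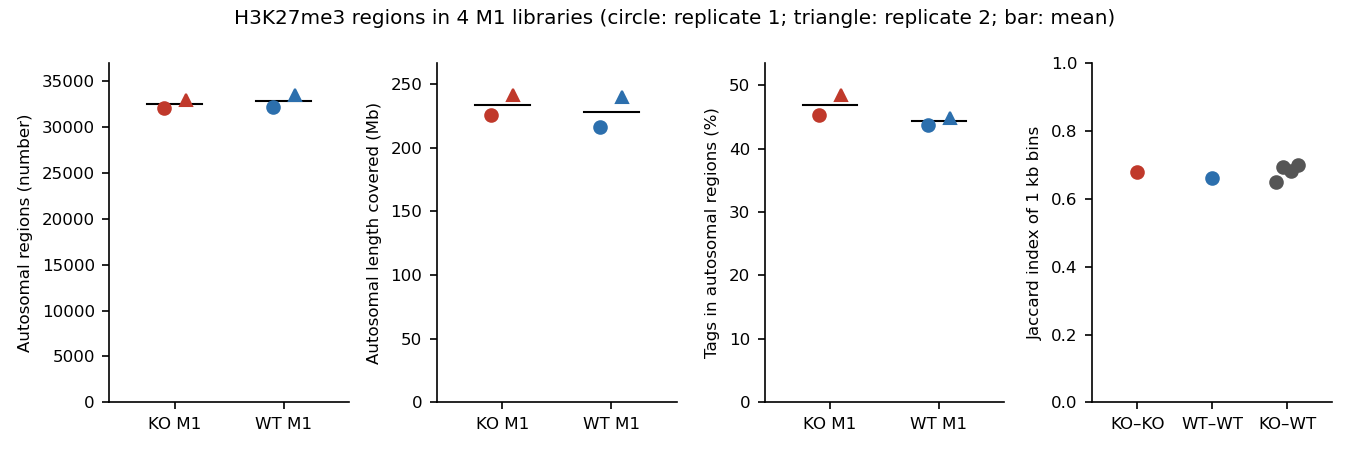
Number of autosomal H3K27me3 regions, autosomal length under regions in Mb, percent of tags inside autosomal regions, and Jaccard index of called 1 kb bins. In the first 3 panels circles are replicate 1, triangles replicate 2 and bars the mean of 2 libraries, with KO M1 left of WT M1; in the last each point is a pair of libraries. Only the tag share, taken of all tags with X included, separates the genotypes. The 4 KO to WT pairs lie at 0.648 to 0.700, around the KO to KO pair at 0.680 and the WT to WT pair at 0.661.

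Position by position, libraries of the same genotype were no more alike than libraries of different genotypes. Each autosome was divided into 1 kb bins, and a bin counted as called when at least 50% of it lay under regions. The Jaccard index, the shared called bins divided by the bins called in either library, was 0.680 between the KO M1 libraries and 0.661 between the WT M1 libraries. Between genotypes it was 0.648 for KO M1 replicate 1 with WT M1 replicate 1, 0.694 for KO M1 replicate 1 with WT M1 replicate 2, 0.681 for KO M1 replicate 2 with WT M1 replicate 1, and 0.700 for KO M1 replicate 2 with WT M1 replicate 2. The highest index was therefore that of a KO to WT pair.

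Of the 317695 bins called in any M1 library, 155704 (49.0%) were called in all 4. Both KO M1 and no WT M1 library called 7344 bins (2.31%), and both WT M1 and no KO M1 library called 5781 bins (1.82%). Bins called in a single library were more numerous: 15904 and 19709 for the KO M1 libraries, and 14902 and 19058 for the WT M1 libraries. The number of KO-only bins was 15171 without WT M1 replicate 1 and up to 27053 without another library, and that of WT-only bins was 24839 without WT M1 replicate 1 and as low as 12245 without KO M1 replicate 1. When a library is left out, the other library of its genotype decides alone, and bins called only there are added. These counts therefore do not show which genotype had more.

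The bins that separated the genotypes were short and scattered. The KO-only bins formed 5760 runs, of which 4446 were a single bin, and the longest spanned 6 kb. The WT-only bins formed 4516 runs, of which 3526 were a single bin, and the longest spanned 8 kb. Of these runs, 49.8% of the KO-only and 43.6% of the WT-only ones lay within 3 kb of a bin called in all 4 libraries, so about as many lay farther away as beside shared domains. The longest KO-only runs lay outside protein-coding genes on chr11:89941001-89947000 and chr14:25443001-25449000, followed by runs of 5 kb that included Fbxl21, Tox2 and Dscaml1. The longest WT-only run lay outside genes on chr5:33176001-33184000, and a run of 7 kb lay in Enox1. These runs were chosen after their lengths were seen.

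In IL-4 macrophages the same bins did not keep the division by genotype. The KO-only M1 bins were called at 54.7% and 41.0% in KO M2, against 15.7% and 53.9% in WT M2. The WT-only M1 bins were called at 54.4% and 41.2% in KO M2, against 34.2% and 59.1% in WT M2. For both sets the ranges of KO M2 and WT M2 overlapped. The low end of each was WT M2 replicate 1, the M2 library with the shortest length under regions. In unstimulated cells the KO-only bins were called at 30.4% in KO M0 and 23.3% in WT M0, and the WT-only bins at 28.5% in KO M0 and 22.6% in WT M0.

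To compare amounts of signal, overlapping regions of the 4 libraries were merged, which gave 44047 merged regions. Of these, 14874 were called in all 4 libraries and held 261273 of the 317608 kb. In each, the authors' normalised tags (scaled to 10 megatags) were summed per library and tested with limma on a log2(value + 1) scale. No merged region was higher and none was lower in KO M1 at a Benjamini-Hochberg adjusted p under 0.05 in limma, and the smallest adjusted p was 0.998. At an unadjusted p under 0.05, limma called 225 regions higher (1.51%) and 118 lower (0.793%) in KO M1. Together these are fewer than the 743.7 that this limit would pass if no region differed and p-values were evenly spread. The limma p-values thus did not follow that spread, and the shortfall is no evidence that the genotypes were alike. The median log2 difference was 0.11, with a median SE of 0.46 per region. From the 5th to the 95th percentile, the log2 differences ran from -0.74 to 0.95.

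Pairs of single libraries showed how large the differences within a genotype were. Across the merged regions, the log2 ratio of the KO M1 libraries to each other had an SD of 0.745, and that of the WT M1 libraries to each other an SD of 0.807. The 4 KO M1 to WT M1 ratios had SDs of 0.641 to 0.877. The spread between genotypes was thus of the size of the spread within them. When each library was centred on its own median, the median difference was -0.01, with 135 regions higher and 197 lower at an unadjusted p under 0.05, so the larger number of higher regions turned with that scaling.

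**Figure D2:**
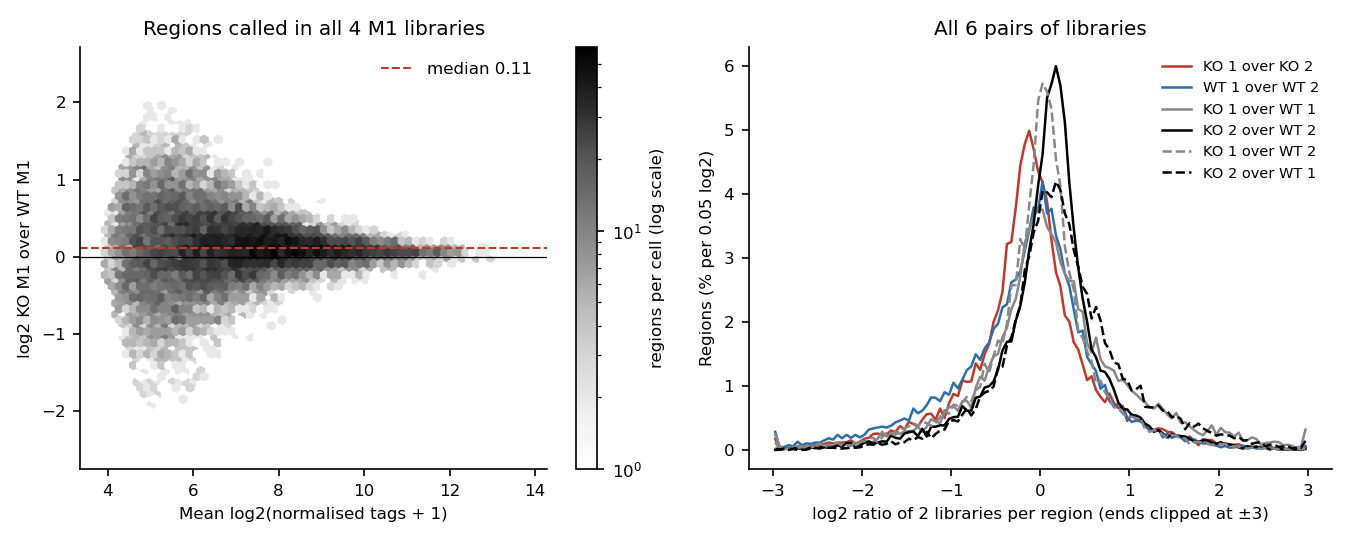
Left, log2 difference of KO M1 over WT M1 for the 14874 merged autosomal regions called in all 4 libraries, against their mean log2(normalised tags + 1); shading gives the number of regions per cell and the dashed line the median of 0.11. Right, distribution of the log2 ratio of single libraries for all 6 pairs, in percent of regions, with ratios beyond ±3 placed at the ends. Differences narrow as signal grows, and the curves of the KO to KO and WT to WT pairs are as broad as those of the KO to WT pairs.

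The strongest domains of the mark differed between genotypes by less than between replicates. The region over the Hoxc cluster (chr15:102724227-103151436), genes that set body pattern in the embryo, held 14130.5 and 14330.4 normalised tags in KO M1, against 14752.7 and 13297.6 in WT M1. The region of Lhx1, a regulator of kidney and head development (chr11:84513635-84809868), held 9769.6 and 9964.2 tags in KO M1, against 10663.4 and 9317.8 in WT M1. In both, the KO M1 values lay between those of WT M1. The log2 differences were 0.02 over Hoxc, -0.01 over Lhx1, 0.05 over Hoxb, 0.01 over Hoxd, 0.09 over Hoxa and 0.00 over Gata4, with adjusted p in limma of 0.998 or more. A region of 5.83 kb nearest to Lrrc4c (chr2:98662059-98667888) was an exception in its density and in its spread, with 12136.2 and 4576.6 tags in KO M1 against 6631.5 and 7260.2 in WT M1. It was singled out after its values were seen. Regions were called without input, so whether the tags of this dense region reflect the mark was not tested.

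The 10 merged regions of lowest p in each direction were examined in turn, and none of them passed the adjusted threshold (adjusted p = 0.998 each, limma). At Smpd3, which encodes a neutral sphingomyelinase, the region chr8:106265971-106287421 held 237.0 and 295.6 tags in KO M1, against 97.9 and 110.6 in WT M1 (log2 difference 1.34, SE 0.30). At Rdh13 and Eps8l1, a retinol dehydrogenase and an actin regulator, the region chr7:4461705-4480048 held 296.1 and 381.8 tags in KO M1, against 168.5 and 121.0 in WT M1 (1.23, SE 0.28). In both the KO M1 libraries exceeded both WT M1 libraries. The region 10.8 kb from Wdr1, a cofactor of actin filament disassembly, held 111.9 and 134.2 tags in KO M1, against 16.6 and 27.2 in WT M1 (2.47, SE 0.58). The others on this side lay in Anks6, Zfp462 and Chn2 and nearest to Uaca, Dapk1, Myo10 and Slc1a3, with log2 differences of 0.93 to 2.09.

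On the other side, the region of lowest p lay 59.9 kb from Nipal2 (chr15:34739066-34758253) and held 30.2 and 27.4 tags in KO M1, against 210.7 and 135.0 in WT M1 (log2 difference -2.51, SE 0.53). At Drc1, which encodes a regulator of the dynein arms of motile cilia, the region chr5:30273862-30289829 held 207.8 and 197.6 tags in KO M1, against 630.4 and 381.7 in WT M1 (-1.27, SE 0.27). At Ncald, a neuronal calcium sensor, the region chr15:37658071-37669545 held 27.5 and 32.8 tags in KO M1, against 154.7 and 128.7 in WT M1 (-2.19, SE 0.52). Each of these was lower in both KO M1 libraries than in either WT M1 library. The remaining regions lay in Adcy5 and Tln2 and nearest to Slmap, Ubash3b, Rps24, Gm765 and Lig4, with log2 differences of -2.32 to -0.98.

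At the level of genes, the mark over gene bodies was likewise not distinguishable between genotypes after adjustment. Tags in called regions per kb of gene body were tested for the 5777 autosomal protein-coding genes with a mean of at least 1 such tag per kb. In limma 0 genes were higher and 0 lower in KO M1 at an adjusted p under 0.05, and the smallest adjusted p was 0.459. Fewer genes passed an unadjusted p under 0.05 in limma than would if none differed. As for regions, this shortfall is no evidence that the genotypes were alike. At that limit 89 genes were higher (1.54%) and 46 lower (0.796%). Without WT M1 replicate 1 these were 191 and 59, without WT M1 replicate 2 they were 243 and 106, and without KO M1 replicate 2 they turned to 63 higher and 162 lower. The median log2 difference was 0.07, with a median SE of 0.25, and it was -0.00 after centring each library. The 0 was tied to how regions were kept: with only the upper 50% of each library's regions by score, 100 genes were higher and 81 lower at an adjusted p under 0.05, and with all 8 stimulated libraries sharing a spread, 1 was higher (Olfr554) and 1 lower (Ly6d), each at an adjusted p of 0.032.

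Most genes of lowest p were listed at 0 in both libraries of a genotype. A value of 0 here says that no region was called over the gene, not that the mark was absent, so no fold is given. Olfr554, an olfactory receptor (chr7:102640248-102641201), had 12.6 and 10.1 tags per kb in KO M1 and was listed at 0 in both WT M1 libraries (adjusted p = 0.459, limma). Mgl2, a lectin receptor of IL-4-activated macrophages (chr11:70130125-70137542), had 2.94 and 3.26 tags per kb in KO M1 and 0 in both WT M1 libraries (adjusted p = 0.536, limma). Its regions covered 22.1% and 25.5% of the body in KO M1. Castor1, the arginine sensor of the mTORC1 pathway, Gh, growth hormone, Catsper1, a sperm calcium channel, and Inhbe, a subunit of activins, followed the same pattern, as did Olfr1419, Fem1al, Gm10024 and Prss22.

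In the opposite direction, Ly6d, a surface protein of the Ly6 family (chr15:74762056-74763567), was listed at 0 in both KO M1 libraries and had 14.4 and 8.99 tags per kb in WT M1 (adjusted p = 0.459, limma). Ifng, which encodes interferon-gamma itself and is a product of T and NK cells (chr10:118441046-118445894), was listed at 0 in both KO M1 libraries and had 2.95 and 2.95 tags per kb in WT M1 (adjusted p = 0.536, limma). Regions covered 20.6% of Ifng in each WT M1 library. Ell3, Ly6m, Gm9376, Map10, Adam6b, Olfr330 and Aplnr, the apelin receptor, were at 0 in both KO M1 libraries too. Insm2, a zinc finger gene of neuroendocrine cells (chr12:55598917-55602018), was called in all 4 libraries, with 22.0 and 21.1 tags per kb in KO M1 against 33.4 and 35.0 in WT M1. The replicates of Insm2 lay close together and its log2 difference was -0.64 (SE 0.10, adjusted p = 0.536, limma).

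**Figure D3:**
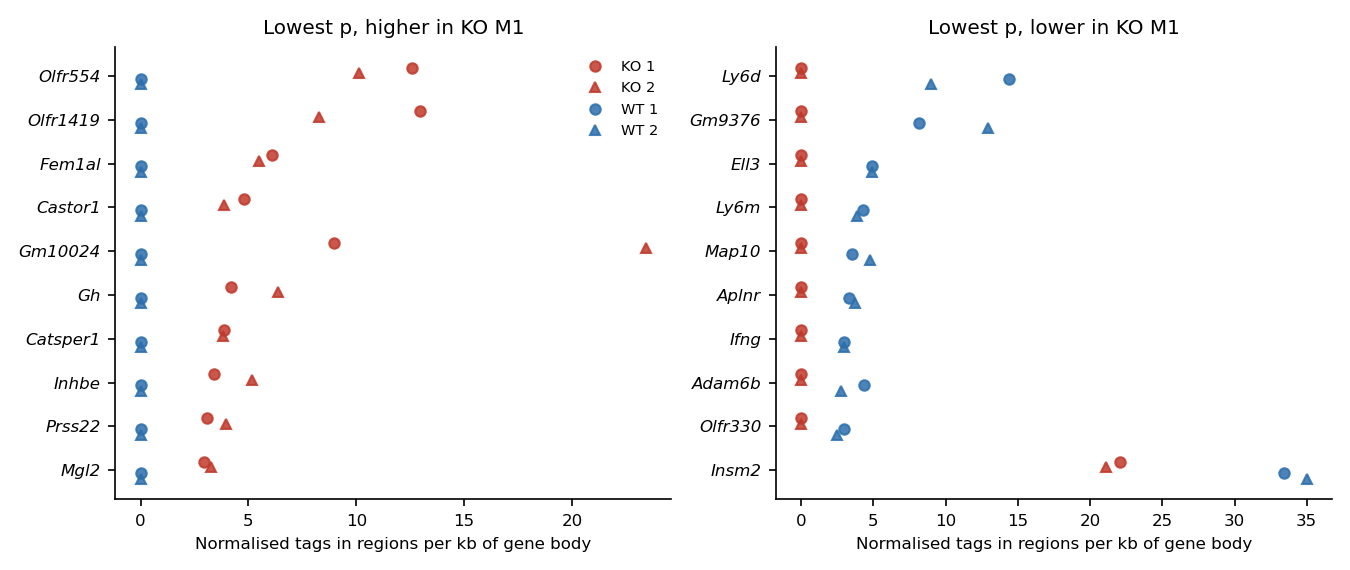
Normalised tags in called regions per kb of gene body for the 10 genes of lowest limma p in each direction, left higher and right lower in KO M1. Red symbols are KO M1 and blue symbols WT M1 libraries, circles replicate 1 and triangles replicate 2. All of the genes except Insm2 are at 0 in both libraries of a genotype, and the smallest adjusted p is 0.459.

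Of the genes that frame the question of the study, 0 passed an adjusted p of 0.05 in limma, and several had too little signal to be tested. In all 4 libraries 0% of the body was covered for Il12b, which encodes a subunit of interleukin-12, for the feedback inhibitor Socs3, for the methyltransferase gene Ezh2, for the stress factors Atf4 and Ddit4 and for the serine synthesis gene Psat1. Il6, an inflammatory cytokine gene, had 20.2% of its body covered in KO M1 replicate 1 and 0% in KO M1 replicate 2 and in both WT M1 libraries. Nos2, the inducible nitric oxide synthase, had 7.74% and 14.0% covered in KO M1, against 5.73% and 0% in WT M1. Kdm6b, the demethylase of this mark, had 9.45% and 15.8% covered in KO M1, against 3.47% and 8.68% in WT M1. In cover the KO M1 libraries lay above the WT M1 libraries at Nos2 and Kdm6b. In tags per kb Kdm6b had 1.5 and 3.48 in KO M1, against 1.01 and 1.58 in WT M1, which overlap (log2 difference 0.55, SE 0.43, adjusted p = 1.00, limma), and Nos2 was under the limit for testing.

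Other genes of this group carried the mark in every library. Ciita, the master activator of MHC class II genes (chr16:10480014-10531064), had 16.5 and 17.3 tags per kb in KO M1, against 13.1 and 13.4 in WT M1 (log2 difference 0.33, SE 0.13, adjusted p = 1.00, limma). Ptgs1, a prostaglandin synthase (chr2:36216742-36258593), had 13.2 and 16.1 tags per kb in KO M1, against 14.4 and 14.4 in WT M1 (0.02, SE 0.15, adjusted p = 1.00, limma). KO M1 lay above WT M1 in each library at Ciita, while at Ptgs1 the WT M1 values lay between those of KO M1. Phgdh, the first enzyme of serine synthesis (chr3:98313171-98339969), had 6.59% and 7.97% of its body covered in KO M1, against 5.49% and 6.32% in WT M1. Its promoter window was covered at 48.0% and 100% in KO M1, against 79.6% and 54.5% in WT M1, so the genotypes overlapped there.

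Lists of genes were compared by how many bodies reached 50% cover in each library, beside the background that 0.861% of genes with any cover were covered in both KO M1 and no WT M1 library and 0.722% in the reverse. For counts in single libraries the background was 2942 and 3271 of all 20665 gene bodies in KO M1, against 2973 and 3107 in WT M1. LPS and interferon genes were covered in 3 of 42 in every library, namely Il12a, Il1b and Ciita. Of 36 genes of interferon and Toll-like receptor signalling, 0 were covered in any of the 4. IL-4 programme genes were covered in 5 of 40 in every library, integrated stress response genes in 1 of 30 in every library, which was Fgf21, and genes of the H3K27 methylation machinery in 3 of 32 in every library, which were Epop, Cbx7 and Cbx8. Serine and one-carbon genes numbered 1 and 2 of 27 in KO M1, against 1 and 1 in WT M1. These equal counts hid some spread within single genes, as at Il1b, an interleukin gene with 88.1% and 97.0% cover in KO M1 against 51.9% and 88.7% in WT M1.

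Longer lists of Polycomb targets gave the same picture. Of 39 Hox genes 37 and 38 were covered in KO M1, against 37 and 38 in WT M1, and of 77 developmental transcription factors 67 and 68 were covered in KO M1, against 67 and 67 in WT M1. Chemokine ligands and receptors were covered in 10 and 11 of 39 in KO M1, against 10 and 13 in WT M1. Potassium, calcium and sodium channel genes were covered in 12 and 16 of 42 in KO M1, against 16 and 14 in WT M1. Of the genes tested in limma, 0 passed an adjusted p of 0.05 in any of the 16 lists, which is also the count over all genes. The 5 tested LPS and interferon genes had a median log2 difference of 0.38 with 5 of 5 above 0, beside 3773 of all 5777 tested genes. Of the 5, 0 passed an unadjusted p of 0.05 in limma. The single tested gene of interferon and Toll-like receptor signalling had 0.49. The median log2 difference was 0.03 over 38 Hox genes, 0.01 over 77 developmental transcription factors, 0.07 over 17 chemokine genes, 0.20 over 17 IL-4 genes and 0.18 over 8 serine and one-carbon genes, beside 0.07 over all 5777 genes.

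Some members of these lists differed widely between replicates. Kcna5, a voltage-gated potassium channel gene, had 0% and 57.5% of its body covered in KO M1, against 56.9% and 44.8% in WT M1. Hba-a1, an alpha globin gene that has a close paralogue, had 0% and 100% covered in KO M1, against 100% and 100% in WT M1. S100a9, a calprotectin subunit of neutrophils, had 6.66% and 27.5% covered in KO M1, against 30.3% and 100% in WT M1. These 3 genes were chosen after their values were seen, and the genotypes overlapped at Kcna5 and Hba-a1 but not at S100a9.

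**Figure D4:**
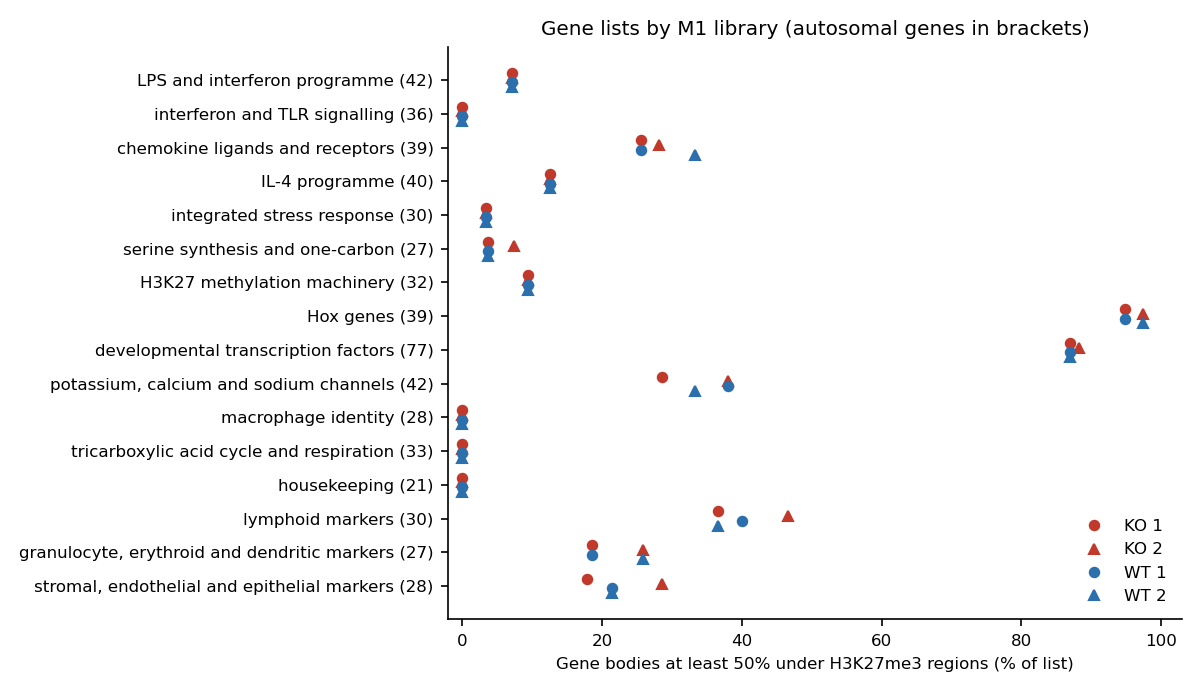
Percent of the autosomal genes of each of 16 lists with at least 50% of the gene body under H3K27me3 regions, with the number of genes in brackets. Red symbols are KO M1 and blue symbols WT M1 libraries, circles replicate 1 and triangles replicate 2. Hox genes and developmental transcription factors lie near the right end in all 4 libraries, and macrophage identity, respiration and housekeeping genes at 0.

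Counted over all genes, few bodies separated the genotypes. At 50% cover, 2942 and 3271 gene bodies were covered in KO M1, against 2973 and 3107 in WT M1, and 2543 in all 4 libraries. Of the 3599 covered in any library, 31 were covered in both KO M1 and no WT M1 library (0.861%) and 26 in both WT M1 and no KO M1 library (0.722%). Without WT M1 replicate 1 these counts were 102 and 105, and over the 4 ways to leave out a library they ran from 92 to 199 and from 53 to 171. Such counts rise by construction, because 1 library fewer has to meet the rule. Part of these genes straddled the 50% limit. Myh11, the smooth muscle myosin heavy chain and the only list gene among them (chr16:14194527-14292188), was covered at 57.4% and 61.0% in KO M1, against 48.9% and 46.3% in WT M1.

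Larger steps were seen at a few of these genes, chosen after their values were seen. C1s1, a protease of the complement cascade, was covered at 64.2% and 64.1% in KO M1, against 24.5% and 43.1% in WT M1. Cma1, a mast cell chymase, was covered at 82.0% and 62.4% in KO M1, against 31.0% and 47.2% in WT M1. Aqp1, a water channel, was covered at 11.3% and 25.2% in KO M1, against 69.1% and 60.6% in WT M1. Gdf5, a growth factor of joints, was covered at 25.1% and 29.6% in KO M1, against 75% and 93.5% in WT M1. In M2 macrophages, 5 of the 31 genes of the first set reached 50% cover in the KO libraries alone and 0 in the WT libraries alone, beside 4.69% and 0.985% of all gene bodies covered in any M2 library. Of the 26 genes of the second set, 1 reached it in the KO M2 libraries alone and 0 in the WT M2 libraries alone.

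Promoters were examined in a window of 1000 bp to either side of the start of the 16457 genes with a known start. None of these starts lay on chromosome 18, whose promoters were thus not examined. Promoters were covered in 3761 and 4005 genes in KO M1, against 3821 and 3826 in WT M1, and in all 4 libraries in 3341. Of the 4400 covered in any library, 48 were covered in both KO M1 and no WT M1 library (1.09%) and 29 in both WT M1 and no KO M1 library (0.659%). Without WT M1 replicate 1 these counts were 128 and 107, a rise that is built into a rule with 1 library fewer. Of the 48, 1 was covered in M2 in the KO libraries alone and 0 in the WT libraries alone, beside 4.3% and 0.482% of all promoters covered in any M2 library, and 34 were covered in both M0 libraries. Of the 29, 0 were covered in both M2 libraries of a genotype and in neither of the other. In all 4 M2 libraries 11 of them were covered, and 21 in both M0 libraries.

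Both promoters of list genes that separated the genotypes belong to the chemokine system. Ccl22 encodes a chemokine that attracts T cells through the receptor Ccr4, and Cxcr2 encodes the receptor through which neutrophils follow CXC chemokines. The promoter window of Ccl22 was covered at 100% and 100% in KO M1, against 27.3% and 1.8% in WT M1. The window of Cxcr2 was covered at 64.6% and 75% in KO M1, against 0% and 0% in WT M1. In both, the KO M1 libraries lay above both WT M1 libraries. Of the 11 chemokine promoters covered in any M1 library these were 2, beside 1.09% of all promoters covered in any library, and this list was chosen with earlier results known. Over the whole list, 9 and 8 of 30 promoters were covered in KO M1, against 7 and 8 in WT M1, so the counts overlapped. Cxcr2 is also a member of the list of granulocytic, erythroid and dendritic markers.

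In the other states these promoters behaved differently from each other. Ccl22 was covered at 18.9% and 34.0% in KO M2, against 0% and 25% in WT M2, and at 100% in KO M0 against 0% in WT M0. Cxcr2 was covered at 69.4% and 78.6% in KO M2, against 48.6% and 100% in WT M2, and at 50.0% in KO M0 against 0% in WT M0. In M2 the genotypes thus overlapped at both promoters, and M0 has a single library per genotype. Over the gene body, Ccl22 (chr8:94745684-94751388) had 20.0 and 20.3 tags per kb in KO M1, against 14.7 and 9.29 in WT M1. Its log2 difference was 0.74 (SE 0.23, unadjusted p = 0.029, adjusted p = 1.00, limma).

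The 300 bases around the start show how these promoters differ in their content of CpG, the dinucleotide that is dense at typical Polycomb targets. They are shown with CG in capitals for both chemokine genes, for Trpc6 as a promoter covered in WT M1 alone, and for Lhx2 as a promoter covered in all 4 libraries. Trpc6 encodes a cation channel, with a window covered at 0% and 0% in KO M1 against 93.8% and 50.0% in WT M1. In WT M1 replicate 2 it thus met the 50% rule only at its limit, with 6.65 tags per kb of window, against 15.9 in replicate 1. Lhx2 encodes a developmental transcription factor, covered at 100% in each library, and both were chosen after their values were seen. The sequences are from RefSeq for GRCm38.p6, plus strand, from 250 bases before to 50 bases after the start, and lie at chr8:94745434-94745733 (Ccl22), chr1:74153744-74154043 (Cxcr2), chr9:8543892-8544191 (Trpc6) and chr2:38339031-38339330 (Lhx2).
Ccl22: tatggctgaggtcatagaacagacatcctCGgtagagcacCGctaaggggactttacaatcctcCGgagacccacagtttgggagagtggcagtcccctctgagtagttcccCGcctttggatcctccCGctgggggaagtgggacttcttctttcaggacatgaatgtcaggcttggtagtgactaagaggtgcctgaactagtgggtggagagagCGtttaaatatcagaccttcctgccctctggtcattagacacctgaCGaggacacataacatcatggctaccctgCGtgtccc
Cxcr2: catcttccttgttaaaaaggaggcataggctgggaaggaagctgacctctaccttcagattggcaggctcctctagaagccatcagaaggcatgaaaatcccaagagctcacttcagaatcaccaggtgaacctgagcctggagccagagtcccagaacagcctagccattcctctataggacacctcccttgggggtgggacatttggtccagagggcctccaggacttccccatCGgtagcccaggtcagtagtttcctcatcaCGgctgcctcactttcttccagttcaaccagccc
Trpc6: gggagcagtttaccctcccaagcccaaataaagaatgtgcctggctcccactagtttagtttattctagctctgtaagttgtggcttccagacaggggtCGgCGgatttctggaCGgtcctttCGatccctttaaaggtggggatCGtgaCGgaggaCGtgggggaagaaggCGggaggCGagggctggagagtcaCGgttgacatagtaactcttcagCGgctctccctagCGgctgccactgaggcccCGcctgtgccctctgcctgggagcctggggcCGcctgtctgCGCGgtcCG
Lhx2: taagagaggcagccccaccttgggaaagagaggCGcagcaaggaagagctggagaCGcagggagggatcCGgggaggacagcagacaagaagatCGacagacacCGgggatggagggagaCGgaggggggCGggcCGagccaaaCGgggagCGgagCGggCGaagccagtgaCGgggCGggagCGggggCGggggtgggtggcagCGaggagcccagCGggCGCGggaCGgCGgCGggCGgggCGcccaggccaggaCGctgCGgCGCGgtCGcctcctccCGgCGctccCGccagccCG

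Ccl22 had 8 CG in these 300 bases, Cxcr2 had 2, Trpc6 had 17 and Lhx2 had 34. Over all promoters, the median was 7.5 in the 48 covered in both KO M1 and no WT M1 library and 8 in the 29 covered in both WT M1 and no KO M1 library. It was 15 in the 3341 covered in all 4 libraries, and 14 over all 16457. At least 10 CG were found in 43.8% of the KO-only and 44.8% of the WT-only promoters, against 65.8% of those covered in all 4 and 58.6% of all. The 982 other promoters, called in 1 to 3 libraries without following genotype, had a median of 6 and at least 10 CG in 35.8%. Promoters called in part of the libraries thus held fewer CG at the median than those called in all 4, whether or not the calls followed genotype. No test was made of these counts.

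The other promoters of the KO-only set include genes with roles in signalling, named after their values were seen. The window of Fbxl21, an F-box protein of the circadian clock, was covered at 100% and 100% in KO M1, against 0% and 0% in WT M1, and it lies in a KO-only run of 5 kb. The window of Itga9, an integrin subunit, was covered at 81.3% and 100% in KO M1, against 0% and 48.2% in WT M1. Notch4, Prkcb and Foxo1 were in this set through smaller steps, such as 54.9% and 51.8% in KO M1 against 47.2% and 47.3% in WT M1 at Foxo1. In the WT-only set, the window of Thbs2, a matrix protein, was covered at 0% and 0% in KO M1, against 75.4% and 50.0% in WT M1. The 50.0% again lay at the limit of the rule, with 6.4 tags per kb of window in WT M1 replicate 2.

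The authors' own M1 comparison gives short regions. Their deposited tables for M1 hold 93 autosomal KO enriched regions and 49 autosomal WT enriched regions, each 401 bp wide, with p-values under 0.01 and a false discovery rate of 1.00 throughout. The log2 fold had a median of 1.45 in the authors' deposited table of KO enriched regions and of -1.60 in that of WT enriched regions. Of the 93 KO enriched regions 30 lay in a protein-coding gene body and 7 within 5 kb of a known start. Of the 49 WT enriched regions 22 lay in a gene body and 2 within 5 kb of a known start. Starts were missing for some genes, among them all of chromosome 18, so the counts near starts can be too low. How many regions the authors tested in M1 and with which model is not given in the sources used here.

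Since these regions were picked for the M1 difference, their calls in M1 are a description. The KO enriched regions were called in 89 and 84 of 93 in KO M1, against 24 and 43 in WT M1, and the WT enriched regions in 5 and 5 of 49 in KO M1, against 48 and 43 in WT M1. In M2 the KO enriched M1 regions were called in 47 and 39 of 93 in KO M2, against 25 and 53 in WT M2. The WT enriched M1 regions were called in 31 and 25 of 49 in KO M2, against 20 and 30 in WT M2. In M0 the KO enriched regions were called in 37 in KO M0 and 26 in WT M0, and the WT enriched ones in 19 in KO M0 and 17 in WT M0. In M2, which the choice did not use, the genotypes overlapped for both sets.

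**Figure D5:**
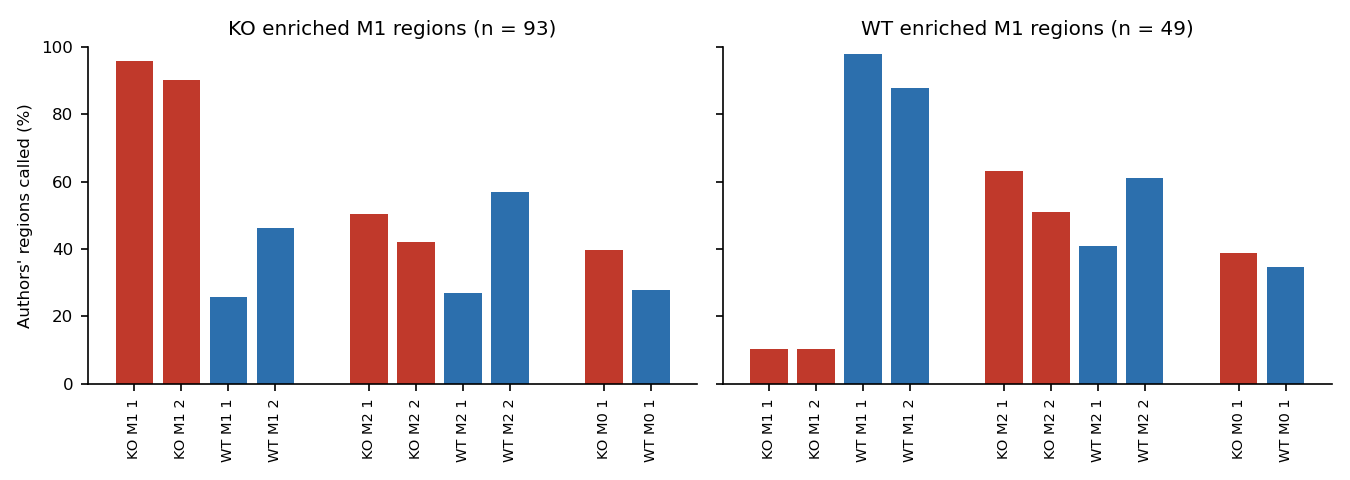
Percent of the authors' deposited M1 regions that were called in each library, for the 93 KO enriched (left) and 49 WT enriched regions (right). Bars are single libraries, red for KO and blue for WT, ordered as M1, M2 and M0. The step between genotypes in M1 is fixed by how the regions were picked, and in M2 the KO and WT bars overlap in both panels.

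Single regions of these tables can be read against the called regions. Within Peli2, which encodes a ubiquitin ligase of Toll-like receptor signalling, the authors' deposited table has a KO enriched region at chr14:48133637-48134037 with a log2 fold of 1.76. It was called over 100% and 100% of its length in KO M1, against 0% and 0% in WT M1, while less than 6% of the whole Peli2 body was covered in any of the 4 libraries. Within Myrip, whose protein connects Rab-coated vesicles to myosin, the authors' deposited table has a WT enriched region at chr9:120385060-120385460 with a log2 fold of -1.80, called over 0% and 0% in KO M1 against 100% and 100% in WT M1. In M2 and M0 the Myrip region was called in all 6 libraries. Within Ptgs1 the authors' deposited table has a KO enriched region with a log2 fold of 1.44, called in both KO M1 libraries and also in WT M1 replicate 2, beside a log2 difference of 0.02 over the gene body.

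Whether the genotype difference in M1 differed from that in M2 was tested in limma as an interaction over the 8 stimulated libraries. Over 10935 merged regions 0 passed an adjusted p of 0.05 in limma, with 192 higher and 199 lower at an unadjusted p under 0.05. Over 5995 gene bodies 10 passed (0.167%), 2 with a higher and 8 with a lower KO over WT difference in M1 than in M2. After each library was centred on its median 0 passed, without WT M1 replicate 1 also 0 in both directions, and without WT M2 replicate 2 the counts were 12 higher and 1459 lower. In that last case WT M2 replicate 1 stands alone for WT M2. It had 33.8% of its tags in autosomal regions, against 56.2% in WT M2 replicate 2 and 60.8% and 61.1% in KO M2. Ddit4, a stress-induced inhibitor of mTORC1 signalling, and Ch25h, the cholesterol 25-hydroxylase, were among the 10 genes. Ddit4 was listed at 0 in all 4 M1 libraries, and had 11.3 and 9.76 tags per kb in KO M2, while both WT M2 libraries were at 0. Ch25h was listed at 0 and 0 in KO M1, against 0.636 and 0 in WT M1, and had 11.5 and 15.5 tags per kb in KO M2, while both WT M2 libraries were at 0. The difference at these genes thus lay in M2.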

How the data were processed

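H3K27me3 chromatin immunoprecipitation libraries were made from 2.5 µg of chromatin each, per the labels' protocols. The submitters' processing notes name the mm10 build, HOMER 4.8 and DiffBind 2.0.2, beside Bowtie2 2.4.2, deepTools 3.5.1 and SAMtools 1.10. Regions were called per library, without input, by HOMER findPeaks in region mode (windows of 1000 bp joined across gaps of up to 2500 bp, false discovery rate 0.001), per the file headers. The signal column holds tags normalised to 10 megatags, per the file headers. The lists also hold the authors' score, used to rank regions within a library, and a clonal ratio (fold), not used here, per the file headers. The authors' deposited tables of differential regions give log2 fold, p-value and false discovery rate.

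Depth was 18.4 to 19.9 megatags per M1 library. The deposited signal is scaled, not raw counts, so limma 3.58.1 (R 4.3.3, empirical Bayes with trend, Benjamini-Hochberg over all features) was run on log2(value + 1), with autosomal merged regions called in all 4 libraries, and genes with a mean of at least 1 tag per kb. A fold on this scale understates changes of low values. Signal outside called regions counts as 0 here. Genes were placed with the RefSeq annotation of GRCm38.p6, the assembly of mm10, with 20665 autosomal protein-coding genes. Of these, 16457 had a start in the RefSeq promoter table, none of them on chromosome 18. Of 577 list genes 566 were autosomal. Library measures were compared by exact permutation. Other steps used scipy 1.17.1, pandas 2.3.3 and numpy 2.4.6 under Python 3.11.15. The limma step was tested on simulated data, and the cover step was checked against a base-by-base count.

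Genes were named by rule: list genes covered in both libraries of a genotype and neither of the other, the 10 regions and 10 gene bodies of lowest p in each direction, genes at the 10 authors' regions of lowest p, and 14 reference genes of the question. The members and lists were chosen with earlier results of these data known. The number of a replicate is not stated to mark a shared animal or day, so the libraries were not paired. Alternatives were other pseudocounts, filters, cover limits, scalings, a replicate block, a shared spread over 8 libraries, and leaving out each library.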

Additional observations from a re-analysis of the deposited data

Results flagged for a closer look

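The KO over WT difference in gene body signal differed between M1 and M2 past an adjusted p of 0.05 in limma, by the test of the difference itself, at 10 of 5995 genes. The log2 values below are the difference in M1 minus that in M2, depend on the added 1 because a group is at or near 0, and are no bounds. The value was -5.13 at Aplnr, the apelin receptor, -4.78 at Map10 and -5.23 at Krt17, a keratin. At Aplnr and Map10 both KO M1 libraries were listed at 0 and both WT M1 libraries were not, and in M2 both KO libraries had signal and both WT libraries were at 0. At Krt17 KO M1 had 0 and 0.797 tags per kb, against 3.46 and 2.72 in WT M1, and M2 had 9.71 and 13.3 tags per kb in KO and 0 in both WT libraries.

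The value was -4.13 at Ifnl3, an interferon-lambda gene, -3.52 at Ddit4, -3.79 at Gm7138, -3.65 at Tex19.2 and -4.20 at Ch25h. At these 5 genes the KO M2 libraries alone had signal among the stimulated ones, apart from 0.636 tags per kb at Ch25h in WT M1 replicate 1. The value was 3.48 at Fpr3 and 4.20 at Olfr1446, an olfactory receptor. Both were at 0 in both KO M2 libraries, and had signal in both WT M2 libraries and in all 4 M1 libraries. All 10 genes lost the call when libraries were centred on their medians or the replicate number was a block.

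The X chromosome, which is outside the comparison, had 0.901 and 0.841 Mb under regions in KO M1, against 31.3 and 0.931 Mb in WT M1, with the high value in WT M1 replicate 1. Regions on X held 0.155% and 0.147% of the normalised tags in KO M1, against 4.56% and 0.151% in WT M1.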

How the results depend on the processing

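Counts of regions past an adjusted p of 0.05 in limma stayed at 0 in both directions under each alternative run for KO M1 over WT M1. For gene bodies they were 100 higher and 81 lower when each library kept its upper 50% of regions ranked by score, and 1 higher and 1 lower with the spread shared by 8 libraries; the cause was not tested. Centring changed the median log2 difference to -0.0083 for regions and -0.0039 for gene bodies, from 0.11 and 0.07. Leaving out 1 library gave medians of 0.05 to 0.16 for regions and 0.015 to 0.13 for gene bodies. KO-only and WT-only counts were 14410 and 11314 bins, 172 and 140 gene bodies and 229 and 191 promoters with the upper 50% of regions, and 47 KO-only gene bodies at 25% cover. Without 1 library they ran from 15171 to 27053 and 12245 to 24839 bins, 92 to 199 and 53 to 171 gene bodies, and 118 to 205 and 72 to 138 promoters. These counts are higher by construction, because 1 library fewer has to meet the rule. The KO minus WT difference in region number was 657 with the upper 50% of regions, reversed from -352, and ran from -1050.5 to 346.5 without 1 library, reversed at 96.5 and 346.5. The covered length differed by -6.66 to 17.3 Mb, reversed at -6.66 and -2.39, and the tag share by 0.931 to 4.07 percentage points. Unadjusted calls among gene bodies ran from 63 to 243 higher and 56 to 162 lower without 1 library. Those among regions ran from 177 to 1151 higher and 69 to 302 lower without 1 library, and were 1133 and 881 with regions called in at least 2 libraries. Genotype by state gave 0 higher and 0 lower gene bodies after centring and with the replicate block; without 1 library it gave 0 to 12 higher and 0 to 1459 lower gene bodies, and 0 to 55 and 0 to 2418 regions, the high ends all without WT M2 replicate 2. Without WT M2 replicate 2, replicate 1 stands alone for WT M2, with 33.8% of its tags in autosomal regions. With the replicate block in M1, 0 regions and 0 gene bodies passed in either direction. Within M1, the deviations of same-numbered KO and WT libraries had a correlation across regions of -0.147 and across gene bodies of -0.0643. The replicate numbers were thus not taken to pair KO M1 with WT M1 libraries. Whether same-numbered M1 and M2 libraries of a genotype belong together was not tested. The main genotype by state test treated the 8 libraries as independent. Of 302 alternatives for the 40 named regions and gene bodies, 300 kept their side of the threshold and 0 changed direction. These 40 were picked for low p in these data, and the named gene bodies except Insm2 were at 0 in both libraries of a genotype. Their direction could thus hardly change, and its constancy is no support. The named regions were not followed with a library left out. With 2 libraries per genotype the limit is well above the median SE of 0.46, since the region with a log2 difference of -2.51 did not pass adjustment (adjusted p = 0.998, limma).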
